A study of Mus musculus with 20 samples.

Results

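The regions described here were the stretches of open chromatin that all 6 spleen libraries of the study had in common, compared by how strong the ATAC-seq peak in them was in CSF1R+ and in CSF1R- cells. The peak lists of the 6 libraries were merged wherever peaks overlapped by at least 1 base. The merging gave 58263 autosomal regions, and 35225 of them (60.5%) had a peak in every library and were kept. In each library the fold enrichment of the strongest peak in a region, as the peak caller gave it, was ranked over these 35225 regions and written as a percentile, in which the weakest region is near 0 and the strongest near 100. The difference between groups is the mean percentile of the CSF1R+ libraries minus that of the CSF1R- libraries, in percentile points.

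The study asked whether B-cell precursors can turn into macrophage-like cells, and its ATAC-seq part compared CSF1R+ with CSF1R- cells of bone marrow (BM) and spleen in 12 libraries. ATAC-seq marks open chromatin by the sites where the Tn5 transposase can insert adapters. The spleen groups were CSF1R+ cells (n = 3 libraries) and CSF1R- cells (n = 3), sorted from untreated naïve mice, which the study's methods describe as young females. No strain is stated for these libraries, and both groups had the same genotype and treatment as far as the labels say. The cells are labelled as macrophages, while the paper calls them B-cell precursors (BMBP). The labels do not say whether libraries of a group came from separate animals, so every p-value here measures the spread between these libraries, which may be technical. Depth per library is unknown, since the lists hold no read counts.

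CSF1R is the receptor tyrosine kinase for the cytokines CSF1 (M-CSF) and IL-34, and is best known from monocytes and macrophages, which need its signal to survive and differentiate. In B cells the transcription factor PAX5 holds the lineage in place, partly by repressing myeloid genes, Csf1r among them. A regulatory element can be open in all cells of a lineage and still differ in how much of the time, or in how many of the cells, it is open, and a graded measure addresses that difference within elements that every library shares.

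The sequences of the 3 regions with the largest positive and the 3 with the largest negative difference are printed first, since the values below refer back to them. Each is the plus strand of GRCm38 (mm10), 200 bases around the median summit of the 6 peaks. Capitals mark matches to any of 20 short motif cores that were searched on both strands. The first 3 were higher in CSF1R+ libraries.
Upstream of Bend3, chr10:43467732-43467931: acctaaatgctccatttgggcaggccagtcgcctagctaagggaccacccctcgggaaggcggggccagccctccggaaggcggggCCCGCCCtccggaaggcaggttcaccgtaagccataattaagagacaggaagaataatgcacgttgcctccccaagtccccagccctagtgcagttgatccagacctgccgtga
Promoter of Tmcc2, chr1:132390323-132390522: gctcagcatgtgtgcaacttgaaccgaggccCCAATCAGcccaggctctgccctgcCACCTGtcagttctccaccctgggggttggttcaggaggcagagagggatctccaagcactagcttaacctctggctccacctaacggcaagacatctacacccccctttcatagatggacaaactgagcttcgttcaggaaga
Intron of Rph3al, chr11:75914062-75914261: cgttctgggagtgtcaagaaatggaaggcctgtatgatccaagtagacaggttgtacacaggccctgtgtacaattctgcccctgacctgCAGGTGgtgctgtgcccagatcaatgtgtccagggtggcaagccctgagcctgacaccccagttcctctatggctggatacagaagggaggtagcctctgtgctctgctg
The other 3 were lower in CSF1R+ libraries.
No gene within reach, chr2:3964455-3964654: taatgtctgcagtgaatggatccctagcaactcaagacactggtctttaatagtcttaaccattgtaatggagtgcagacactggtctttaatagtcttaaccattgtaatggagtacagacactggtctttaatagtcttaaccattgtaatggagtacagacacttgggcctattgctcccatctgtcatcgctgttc
Intron of Gab2, chr7:97297578-97297777: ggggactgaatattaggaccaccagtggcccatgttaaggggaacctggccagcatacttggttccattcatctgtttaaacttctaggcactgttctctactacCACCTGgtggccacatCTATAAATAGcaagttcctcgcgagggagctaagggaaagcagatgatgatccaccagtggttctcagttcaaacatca
Near Ptp4a1, chr1:30920925-30921124: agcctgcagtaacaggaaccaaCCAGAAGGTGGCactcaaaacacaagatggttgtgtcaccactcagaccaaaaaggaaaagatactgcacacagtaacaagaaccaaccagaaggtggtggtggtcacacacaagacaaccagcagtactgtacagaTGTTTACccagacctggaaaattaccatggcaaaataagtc
The Bend3 window held 1 match to the KLF/SP core GGGCGGG, which 17.6% of the 35225 regions hold. The windows of Tmcc2, Rph3al and Gab2 each held 1 match to the ZEB/E-box core CAGGTG, found in 17.2% of regions. Tmcc2 also held the NFY core CCAATNAG (4.74% of regions) and Gab2 the MEF2 core (3.16%). The Ptp4a1 window held the CTCF core (4.87% of regions) and the FOXO core TGTTTAC (2.57%). The window with no gene within reach held none of the 20 cores. A match is a match of letters only.

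Most B-cell promoters were open in both groups, whose cells the labels call macrophages. A peak stood at the promoter in all 6 libraries for 20 of 22 genes of the B-cell receptor and surface. The same held for 16 of 18 genes listed as B-lineage transcription factors. The exceptions were Rag1 and Rag2, which the list includes though they are not transcription factors. Over all 21681 protein-coding genes of the autosomes and X, 51.9% had a promoter peak in all 6 libraries and 43.5% in none. Fold enrichment at the promoter of Ms4a1, which encodes CD20, ranged from 15.8 to 20.4, and at that of Cr2, the complement receptor CD21 of mature B cells, from 21.7 to 25.5. Promoters without a peak in any library included those of Vpreb1 and Igll1, the surrogate light chain of pre-B cells, and of Rag1, which with Rag2 cuts the antigen receptor genes. A peak at the Rag2 promoter was listed in 2 CSF1R+ libraries and 1 CSF1R- library. Of 30 myeloid regulators and markers, 12 had a promoter peak in all 6 libraries, a smaller share than the 51.9% of all genes. Another 14 had a peak in none, near the 43.5% of all genes. Those without a peak included Csf1r itself, Lyz2 and Mrc1. Among the 12 were Spi1, which encodes PU.1, a factor of B and myeloid cells, with fold enrichments of 18.5 to 22.7, Tyrobp, an adaptor of myeloid and NK cell receptors, with 14.7 to 20.2, and Itgam, Cd14, Cebpa and Cebpb. Of 20 T and NK cell markers, 8 had a promoter peak in all 6 libraries and 11 in none. Cd3d, a chain of the T-cell receptor complex, had fold enrichments of 19.8 to 25.02, and Cd3e, Cd3g, Cd4 and Cd8a had no peak. A promoter peak here is any peak overlapping the 1000 bases on either side of a protein-coding start of the gene. Starts of other genes in that span were not excluded. What share of the cells was of another type was not tested.

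The groups also differed in how much was called. The CSF1R+ lists held 50392, 50255 and 49123 peaks and the CSF1R- lists 43407, 45228 and 48893, so that every CSF1R+ list was longer (two-sided exact permutation test, p = 0.1, the least that 3 libraries against 3 allow). In the shared regions the median fold enrichment was 13.8, 13.5 and 12.1 in CSF1R+ and 11.3, 11.9 and 12.3 in CSF1R- libraries, and the groups overlapped. The median peak width was 507, 504 and 496 bases against 444, 452 and 493 bases. A percentile takes away a difference in scale between libraries, but what these gaps contribute to the differences below was not tested.

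Ranked strength was similar in all 6 libraries. Spearman's rho over the 35225 regions was 0.937 to 0.949 between CSF1R+ libraries, 0.919 to 0.932 between CSF1R- libraries and 0.921 to 0.943 between the groups, given as a description. The third CSF1R- library stood apart from its group, in which it is placed by its label alone, and its sort and label could not be checked here. It correlated at 0.935, 0.937 and 0.943 with the CSF1R+ libraries and at 0.919 and 0.926 with the other CSF1R- libraries. It was also closest to the CSF1R+ libraries in the number of peaks and their width. The third CSF1R+ library in turn correlated better with it (0.943) than with its own group (0.937 and 0.938). These libraries of like number also resembled each other in peaks (49123 and 48893) and median width (496 and 493 bases). By the Spearman's rho of percentile with GC content, given below, the third CSF1R- library lay with its own group, at 0.278. The other CSF1R- libraries had 0.279 and 0.271, and the CSF1R+ libraries 0.238 to 0.270. The separation of the groups had a pseudo-F of 1.08 (exact permutation test over the assignments of 3 of 6 libraries, p = 0.5). Without the third CSF1R- library it was 1.69 (exact permutation test, p = 0.1, the least that 3 libraries against 2 allow). Leaving out any other single library gave 0.88 to 1.03 (exact permutation test, p = 0.3 to 0.6). The third CSF1R- library was singled out by its correlations with the others, so the value without it does not show a separation.

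No shared region passed the test for a difference in strength between CSF1R+ and CSF1R- libraries. With limma on the percentiles and Benjamini-Hochberg adjustment over all 35225 regions, 0 regions (0%) were called higher and 0 (0%) lower at an adjusted p of 0.05, and the smallest adjusted p was 0.778. At an unadjusted p under 0.05 there were 1218 regions higher and 1014 lower in CSF1R+, together 6.34% of those tested. Without a trend of the variance on strength, limma also called 0 regions, with 1136 and 1317 at an unadjusted p under 0.05 and a smallest adjusted p of 0.295. Without the third CSF1R- library 0 were called, with 1717 and 1432 at an unadjusted p under 0.05. The same limma test within BM, over the 49413 regions shared by its libraries, also called 0 (smallest adjusted p = 0.410). The paper's own test reported differences between CSF1R+ and CSF1R- cells in BM and none in spleen. A count of 0 here therefore does not show that the groups are alike.

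Most differences between the group means were small on the percentile scale. The median absolute difference was 3.39 points and the 95th percentile 13.1 points. The median SD between replicates was 5.51 points, which is a spread of single libraries and not of means, so the values are not like for like. A difference of 10 points or more was measured in 3715 regions (10.5%), of 20 or more in 291 (0.826%) and of 30 or more in 16. The 95% confidence interval of the difference had a median half-width of 11.5 points. It lay wholly within 20 points of 0 for 24760 regions (70.3%), and within 10 points for 9198 (26.1%). These intervals are not adjusted for the number of regions, and no difference passed the adjusted test, the largest of 37.2 points included.

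How tightly a region was measured depended on its strength. In regions with a mean percentile from 80 to 100, whose median fold enrichment was 23.7, the median replicate SD was 2.48 points and the median half-width of the interval 4.52 points. In regions from 20 to 40, with a median fold enrichment of 8.93, the SD was 8.38 points and the half-width 15.4 points. The scale is bounded, so that the weakest and the strongest regions have less room to move.

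**Figure D1:**
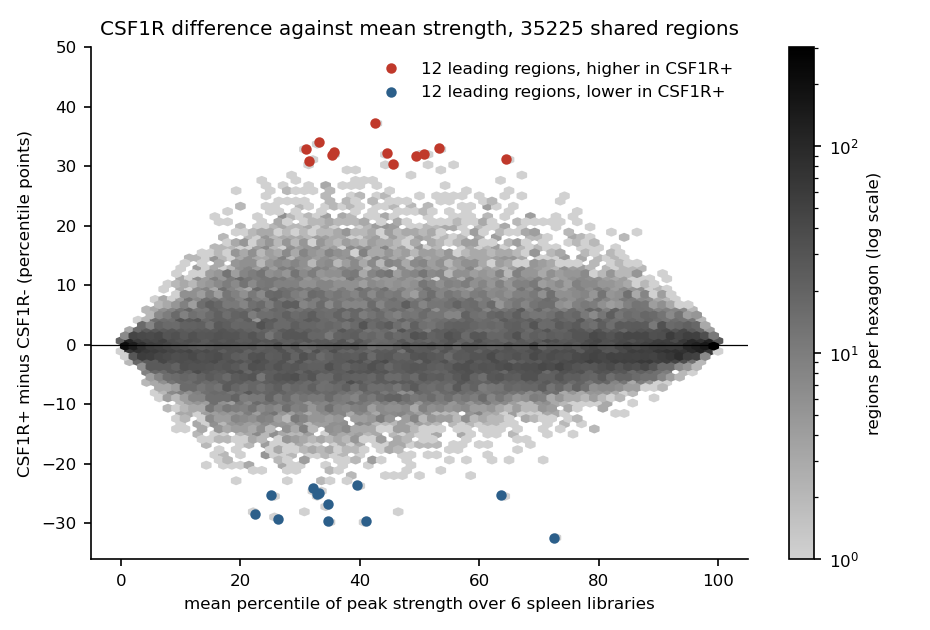
Difference between CSF1R+ and CSF1R- libraries (vertical axis, percentile points) against the mean percentile of the 6 spleen libraries (horizontal axis) for the 35225 shared regions, shaded by the number of regions on a log scale, with the 12 leading regions of each direction as points. The cloud is widest at low to middle strength and narrows towards 100, and the leading regions lie beyond 30 points above 0 and between -23.5 and -32.4 points below it.

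The strongest shared regions, of which 2 were picked after their values were seen, stand near the top of the scale and have little room to differ on it. The promoter of Gpn1, a GTPase that carries RNA polymerase II into the nucleus, had fold enrichments of 39.98, 39.6 and 39.9 in CSF1R+ and 37.1, 37.9 and 41.3 in CSF1R- libraries. The promoter of Fastkd1, a mitochondrial protein, had 39.1, 39.0 and 37.2 against 37.6, 37.3 and 39.9. Of the 1000 regions with the highest mean percentile, 71.1% were promoters, with a median absolute difference of 0.409 points, and 57 were higher and 71 lower in CSF1R+ without overlap, near the 4.82% and 7.23% of all shared regions.

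Regions whose groups did not overlap were then counted. In 1697 regions (4.82%) every CSF1R+ library ranked above every CSF1R- library, and in 2547 (7.23%) every one ranked below. The median absolute difference over these 4244 regions was 7.91 points. When regions were ranked by the −log10 p-value of the peak instead of its fold enrichment, the counts were 1592 and 1678. The named regions that follow were taken from these non-overlapping regions by the size of the difference, so their separation was fixed by the choice and none passed the test (limma, adjusted p = 0.778 for each).

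Higher in CSF1R+, the leading 12 regions lay in introns (8), between genes (3) and at a promoter (1), where 24277 of all 35225 shared regions lay outside promoters. Their differences ranged from 30.4 to 37.2 points and their standard errors from 5.16 to 10.5 points. Mean percentiles were between 46.9 and 80.1 in CSF1R+ and between 14.5 and 48.9 in CSF1R- libraries. They were thus regions of low to middle strength in the CSF1R- libraries.

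The largest difference was upstream of Bend3, which encodes a transcriptional repressor with BEN domains, at -10992 bases from its start (chr10:43467679-43467998). Its percentiles were 61.9, 70.8 and 50.9 in CSF1R+ and 24.8, 15.8 and 31.5 in CSF1R- libraries. The difference was 37.2 points (95% confidence interval 19.9 to 54.4).
The promoter of Tmcc2, which encodes a transmembrane coiled-coil protein (chr1:132390276-132391121), had percentiles of 49.8, 56.2 and 44.9 against 13.5, 28.4 and 6.71. The corresponding fold enrichments were 13.8, 14.8 and 11.2 against 5.85, 8.20 and 5.15. It was the only promoter among the 12, and its lowest CSF1R+ value was well above its highest CSF1R- value. Its difference of 34.1 points was 21.7 points when percentiles were taken among promoters alone and 23.0 points when peaks were ranked by −log10 p-value. With regions of 1 peak per library, with peaks that cover at least 50% of the region, or with lists of equal length, it was not among the shared regions.
Within an intron of Rph3al, an effector of Rab proteins in exocytosis (chr11:75914035-75914317), a region had 60.8, 69.7 and 78.9 against 20.3, 39.5 and 50.3. The spread within both groups was wide here, with an interval of 12.8 to 53.4 points.

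The most even of the 12 was an intron region of Fnbp1, which encodes a membrane-bending F-BAR protein of endocytosis (chr2:31108208-31108600). It had percentiles of 51.2, 52.1 and 52.2 in CSF1R+ and 15.7, 20.4 and 22.4 in CSF1R- libraries, a difference of 32.3 points (interval 20.3 to 44.3). In Sipa1l2, a GTPase activator of Rap, an intron region (chr8:125542969-125543544) had 48.8, 51.5 and 53.6 against 7.27, 25.04 and 26.1. In both, the CSF1R+ libraries lay close together and the CSF1R- libraries were spread more widely.
An intron region of Hhat, the acyltransferase that modifies Hedgehog ligands (chr1:192698968-192699633), had 72.5, 63.2 and 64.7 against 24.8, 33.6 and 45.9. In Ncoa1, a coactivator of nuclear receptors, an intron region (chr12:4285829-4286452) had 46.0, 69.7 and 66.3 against 18.03, 22.8 and 44.5. In Ncoa1 the lowest CSF1R+ value was just above the highest CSF1R- value.
For a region of Synj1, a phosphoinositide phosphatase, the second CSF1R- library (58.0) was close to the CSF1R+ values of 62.7, 66.8 and 66.3 and far from the other CSF1R- values of 20.3 and 22.4. The remaining 4 regions were near Slc10a1 (a bile acid transporter of liver) and Ubl7 and in introns of BC055324 and Dlgap1 (a scaffold of synapses). The difference near Ubl7 was 31.2 points, and 19.7 points when ranked by −log10 p-value. In Dlgap1 it was 30.4 points, and 19.7 points without the second CSF1R- library.

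Lower in CSF1R+, none of the leading 12 regions was a promoter. Of the 12, 5 lay in introns and 7 between genes, with differences from -23.5 to -32.4 points. The largest was a region of chromosome 2 with no gene start within 50000 bases (chr2:3964432-3964689). Its percentiles were 44.7, 52.1 and 71.9 in CSF1R+ and 86.4, 95.01 and 84.6 in CSF1R- libraries, and it was the strongest of the 12 in CSF1R- libraries.
An intron region of Gab2, a docking protein of receptor tyrosine kinases that also serves CSF1R (chr7:97297510-97297972), lay 216155 bases into the gene. It had percentiles of 18.4, 24.7 and 16.2 against 49.1, 43.3 and 55.8, with fold enrichments of 7.87, 8.84 and 6.71 against 11.1, 10.6 and 13.4. The difference was -29.7 points (interval -43.2 to -16.1), and the replicates of each group lay close together.
A region 28330 bases from the start of Ptp4a1, a protein tyrosine phosphatase (chr1:30920807-30921150), had 24.8, 24.7 and 29.4 against 64.5, 48.6 and 54.5. A region of chromosome 5 with no gene within reach (chr5:68746953-68747681) had 4.92, 19.0 and 13.95 against 38.5, 33.2 and 41.7. In both, the CSF1R+ values were well below every CSF1R- value.
In Rabgap1l, which encodes a GTPase activator of Rab proteins, an intron region (chr1:160377532-160377957) had 16.9, 21.4 and 25.6 against 55.1, 37.6 and 51.6. A region at -40307 bases from the start of Adgrf1, an adhesion G protein-coupled receptor, had 2.50, 11.9 and 10.4 against 32.1, 46.7 and 31.1. The others were near or in Sdr39u1, Nkain3, Epha1, Sst (somatostatin), Bcas3 and Trak2.

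**Figure D2:**
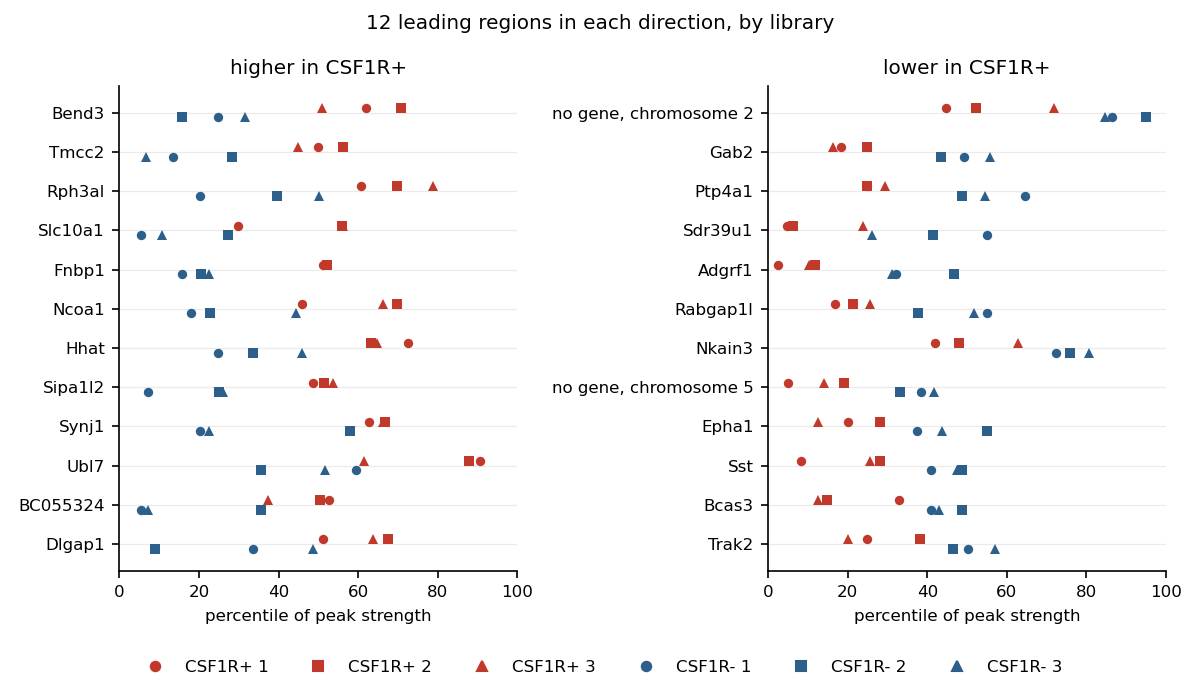
Percentile of peak strength (horizontal axis) in each spleen library for the 12 leading regions higher (left) and lower (right) in CSF1R+, CSF1R+ libraries in red and CSF1R- in blue, with a symbol per replicate number and regions named by their assigned gene. Every region separates the groups because it was chosen to, and within groups the libraries can spread widely, from 20.3 to 58.0 in the CSF1R- libraries for Synj1.

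At Csf1r, 4 merged regions were assigned to the gene and 1 of them was shared by all libraries. It lay in an intron 7951 bases from the start (chr18:61108230-61108868). Its percentiles were 46.0, 47.0 and 42.5 in CSF1R+ and 44.3, 56.8 and 45.1 in CSF1R- libraries. The groups overlapped, and the difference of -3.56 points had a 95% confidence interval of -17.3 to 10.2. Of the 3 other regions, 2 had peaks in all 3 CSF1R+ libraries, at -8526 and 12763 bases from the start, and in 1 and 2 CSF1R- libraries, respectively. The last, at -9761 bases, had a peak in 1 library of each group. Every CSF1R+ list was longer than every CSF1R- list. Of all merged regions, 5.98% had a peak in 4 libraries and 7.28% in 5, and how these split between the groups was not counted.

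Pax5 carried 27 merged regions, of which 16 were shared. The region at -535 bases from the start had percentiles of 13.0, 9.72 and 6.73 in CSF1R+ and 13.0, 10.4 and 12.6 in CSF1R- libraries. The region around a second promoter at 5951 bases had 63.4, 64.2 and 64.2 against 74.2, 68.5 and 67.3, a difference of -6.04 points (interval -14.2 to 2.08), with every CSF1R+ library below every CSF1R- library.
The largest difference at Pax5 was in an intron 76165 bases from the start (chr4:44634139-44634504), with 40.2, 47.1 and 31.9 in CSF1R+ and 14.3, 3.48 and 36.0 in CSF1R- libraries. The mean differed by 21.8 points (interval 1.35 to 42.2), but the third CSF1R- library lay among the CSF1R+ values and the adjusted p (limma) was 0.778. Of the 16 shared regions, 3 did not overlap between the groups, and all 3 were lower in CSF1R+, at -2843, 4305 and 5951 bases from the start, where 4.82% of all shared regions were higher and 7.23% lower without overlap. The region at -2843 bases ranked low throughout, with 0.617, 0.362 and 0.637 against 1.90, 1.77 and 2.39, and the region at 4305 bases also did, with 0.881, 0.734 and 0.507 against 1.56, 1.22 and 1.09.
Regions close to the Pax5 start were also crowded. The region at 1220 bases had fold enrichments of only 2.18 to 2.60 in all 6 libraries, near the bottom of the ranking, with 5 other shared regions within 5000 bases of it. Over all shared regions, the median fold enrichment was 15.1 without any neighbour within 5000 bases, 9.76 with 1 neighbour, 6.85 with 2 to 3 and 4.96 with 4 or more.

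**Figure D3:**
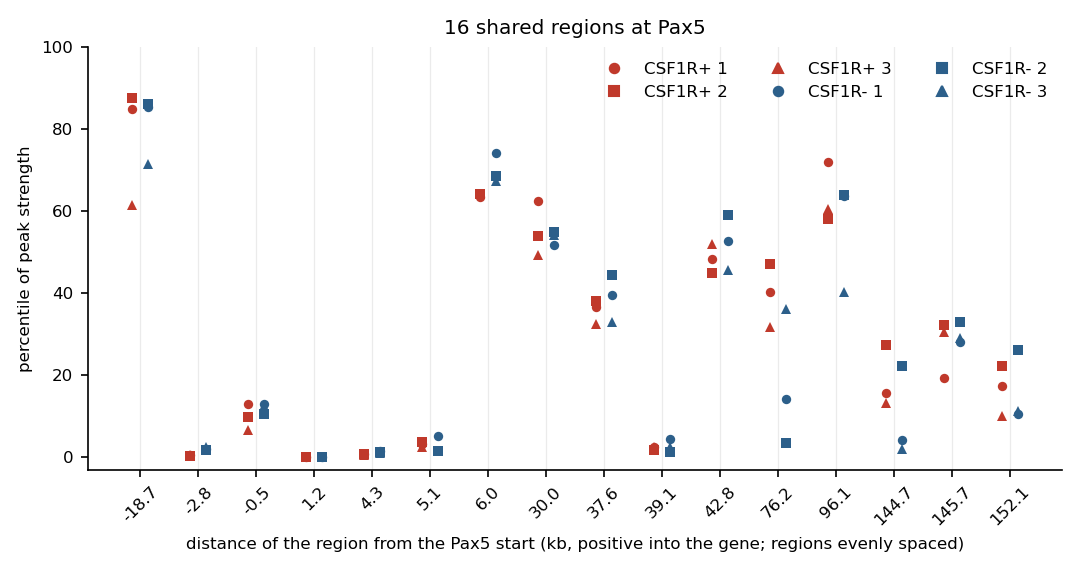
Percentile of peak strength (vertical axis) in each spleen library for the 16 shared regions at Pax5, ordered by distance from the gene start in kilobases (horizontal axis, evenly spaced), CSF1R+ libraries in red and CSF1R- in blue. The groups overlap in 13 of the 16 regions, and the widest gap in means is at 76165 bases, where 1 CSF1R- library lies with the CSF1R+ libraries.

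Genes of 12 lists, of B cells and of other cell types and pathways, were then read against all shared regions, of which 4.82% were higher and 7.23% lower in CSF1R+ without overlap and the median difference was -0.48 points. No region of any list was called. The list of B-lineage transcription factors, in which Rag1 and Rag2 also stand, had 183 shared regions at 17 genes. Its median difference was -0.88 points, with 3 regions higher (1.64%) and 14 lower (7.65%). In an intron of Ebf1, a factor that commits cells to the B lineage, a region 39774 bases from the start had 41.1, 35.4 and 49.2 in CSF1R+ and 22.7, 28.1 and 32.4 in CSF1R- libraries. In an intron of Bach2, a repressor that delays plasma cell formation, a region 174462 bases from the start had 29.1, 27.1 and 19.5 against 36.7, 32.3 and 46.9. The differences of these 2 regions had opposite signs, 14.2 and -13.4 points. Some genes stand in more than 1 list, such as Flt3, Irf4, Mzb1, Cd74 and Csf1r.

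The B-cell receptor and surface genes had 102 shared regions at 19 genes, with a median of -1.36 points, 3 higher (2.94%) and 5 lower (4.90%). A region near Blk, a Src family kinase of the B-cell receptor, had 15.9, 11.3 and 22.7 in CSF1R+ and 40.04, 28.0 and 25.5 in CSF1R- libraries. At the promoter of Cd79b, a signalling chain of the receptor, the values were 22.6, 13.4 and 15.9 against 38.0, 28.7 and 21.2, with overlap. An intron region of Lyn had the other sign, with 79.8, 85.9 and 49.4 against 64.5, 53.5 and 62.0, also with overlap. Of the differences of this list, 41 were positive and 61 negative, from -14.5 to 11.7 points.
Genes of marginal zone and follicular B cells had 126 shared regions at 20 genes, with a median of -1.44 points, 4 higher (3.17%) and 13 lower (10.3%). The promoter of Cd9, a tetraspanin of marginal zone and B-1 cells, had 49.6, 32.1 and 34.2 in CSF1R+ and 30.7, 28.7 and 20.3 in CSF1R- libraries. A region at -6887 bases from the start of Plac8 had 13.0, 22.2 and 14.03 against 26.1, 32.1 and 30.6.

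Myeloid regulators and markers had 55 shared regions at 24 genes, with a median of -0.53 points, 2 higher and 2 lower (3.64% each). The median percentile over these regions was 40.1, 41.1 and 42.5 in CSF1R+ and 41.8, 44.8 and 37.8 in CSF1R- libraries, with overlap. A region at -4763 bases from the start of Csf2rb, the shared receptor chain for GM-CSF, IL-3 and IL-5, had 51.2, 61.4 and 50.2 against 40.9, 46.9 and 36.6. A region at -5343 bases from the start of Itgam, which encodes CD11b, had 21.5, 38.3 and 31.3 against 13.5, 33.6 and 12.8, and the groups overlapped. Both were named for the size of their difference. Over the list, 25 differences were positive and 30 negative, from -7.40 to 12.8 points.
The CSF1R pathway genes had 111 shared regions at 21 genes, with a median of -0.75 points, 6 higher (5.41%) and 7 lower (6.31%), the Gab2 region above included. The promoter of Akt1, a kinase downstream of many growth factor receptors, had 28.5, 42.7 and 19.5 in CSF1R+ and 45.7, 50.05 and 45.3 in CSF1R- libraries. In Sos1, the exchange factor that activates Ras, an intron region had 44.7, 46.7 and 52.2 against 35.5, 22.8 and 36.6.

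Stem and progenitor regulators had 93 shared regions at 13 genes, with a median of 0.02 points, 7 higher (7.53%) and 4 lower (4.30%). Among the 7 were 2 regions of Myb, a factor that progenitors need for proliferation. The first, at -31606 bases from the start, had 47.1, 38.7 and 42.3 in CSF1R+ and 32.7, 21.0 and 25.3 in CSF1R- libraries. The second, at 47979 bases, had 67.3, 73.5 and 68.7 against 53.6, 53.5 and 63.2. An intron region of Runx2, a factor known from bone and also present in lymphoid cells, had 72.6, 81.5 and 75.5 against 55.1, 66.2 and 62.0. The interval of the difference was 3.05 to 29.7, 2.72 to 23.5 and 5.69 to 25.3 points for the 3 regions, and the adjusted p (limma) was 0.778 for each. All 3 were named for the size of their difference, and none of the 4 lower regions is printed. Over the list, 47 differences were positive and 46 negative, from -13.0 to 16.4 points.

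Immediate-early and NF-kB genes had 178 shared regions at 27 genes, with a median of -1.09 points, 6 higher (3.37%) and 21 lower (11.8%). The promoter of Nr4a2, an orphan nuclear receptor of the immediate-early response, had 13.1, 22.8 and 15.7 in CSF1R+ and 26.2, 38.6 and 38.8 in CSF1R- libraries. The next largest differences of this list had the other sign, near Cd83 (14.3 points), in Nr4a3 (14.2) and near Egr1 (13.0), all with overlap. MHC class II genes had 46 shared regions at 10 genes, with a median of -1.67 points, 1 higher (2.17%) and 4 lower (8.70%). Near H2-Aa, an alpha chain of the class II molecule, a region at -3973 bases from the start had 17.7, 16.0 and 20.8 against 27.6, 23.7 and 24.7. The largest difference of the class II list was positive, 9.03 points near Ciita, with overlap.
Plasma cell markers had 32 shared regions at 8 genes, with 0 higher and 4 lower (12.5%) and a median of -1.60 points. The promoter of Sdc1, which encodes the plasma cell antigen CD138, had 50.1, 42.1 and 36.3 in CSF1R+ and 56.0, 53.0 and 52.0 in CSF1R- libraries. The largest difference of the plasma cell list had the other sign, 13.3 points at -35058 bases from the start of Xbp1, with overlap. These small lists rest on few regions, and a share above or below that of all regions was not tested.

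Of the lists for other cell types, T and NK cell markers had 35 shared regions at 11 genes, 0 higher and 4 lower (11.4%), with a median of -1.74 points. A region near Zap70, a kinase of T-cell receptor signalling, had 32.8, 21.4 and 29.4 in CSF1R+ and 47.6, 43.7 and 41.4 in CSF1R- libraries. Dendritic cell markers had 44 shared regions at 9 genes, 3 higher (6.82%) and 4 lower (9.09%), with a median of 1.22 points. An intron region of Zbtb46, a factor of classical dendritic cells, had 63.1, 54.7 and 34.9 against 31.6, 31.5 and 17.0. A region near Xcr1, a chemokine receptor of these cells, had 42.3, 61.6 and 57.3 against 71.5, 64.4 and 61.1, lower on average in CSF1R+ and with overlap. Erythroid and megakaryocyte markers had 8 shared regions at 5 genes, none without overlap, and a median of 3.08 points. The number of T and NK cell promoters with a peak was 9 in each CSF1R+ library and 8, 9 and 8 in CSF1R- libraries. For myeloid promoters it was 13, 14 and 16 against 12, 13 and 14 of 30, in lists that were longer in CSF1R+. In a bulk library a share of other cells and a weaker opening in every cell cannot be told apart.

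**Figure D4:**
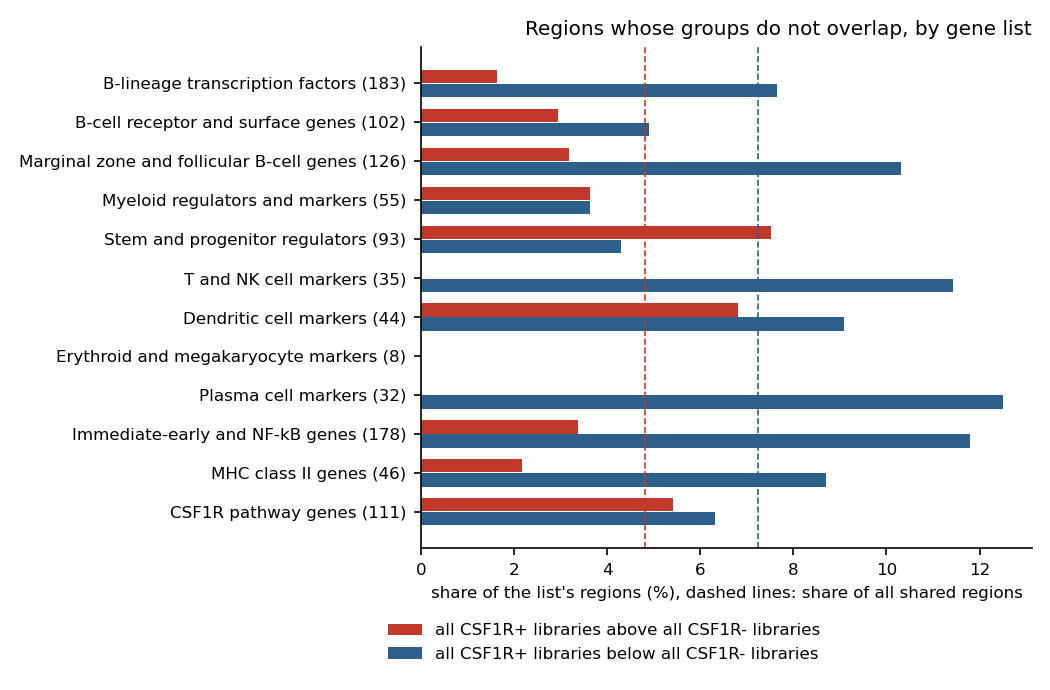
Share of each list's shared regions (horizontal axis, %) in which all CSF1R+ libraries lay above (red) or below (blue) all CSF1R- libraries, with the number of regions in brackets and the shares over all shared regions as dashed lines (4.82% and 7.23%). Most bars for CSF1R+ above CSF1R- are shorter than their line, the stem and progenitor regulators, dendritic cell markers and CSF1R pathway genes being the exceptions.

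The median percentile of promoters was on average lower in CSF1R+ libraries, with overlap between the groups. The median percentile of the 10948 promoter regions, whose midpoints lay within 1000 bases of a start of a protein-coding transcript, was 68.5, 68.8 and 71.0 in CSF1R+ and 71.8, 71.2 and 70.9 in CSF1R- libraries. The group means were 69.4 ± 1.39 and 71.3 ± 0.461 (SD, n = 3), a difference of -1.86 points (exact permutation test, two-sided, p = 0.2). The third CSF1R+ library lay with the CSF1R- libraries. Among promoters, 3.24% of regions were higher and 12.5% lower without overlap, and the median difference was -1.43 points. In introns the median difference was 0.14 points, between genes 0.03 and in exons 0.09. When peaks were ranked by −log10 p-value, the median difference of promoters was -0.15 points, with 3.86% higher and 6.24% lower, so most of the promoter difference was seen in fold enrichment and not in the p-value of the same peaks.

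The relation of strength to GC content followed the same libraries. Spearman's rho between percentile and GC content of the 200 bases around the summit was 0.241, 0.238 and 0.270 in CSF1R+ and 0.279, 0.271 and 0.278 in CSF1R- libraries, given over 35225 regions that are not independent. Every CSF1R+ value was below every CSF1R- value, by a mean of -0.0264 (p = 0.1 by exact permutation, the least that 6 libraries allow). By −log10 p-value the mean difference was -0.00796 (exact permutation test, p = 0.6). In the fifth of regions with the highest GC content, from 63.0% to 88.5%, 3.18% were higher and 13.2% lower without overlap. Promoters and other regions were also compared at like GC content. Between 50% and 55% GC the median difference was -0.93 points in 1003 promoters and 0.05 points in 6416 other regions. At higher GC content other regions were also negative. The medians were -1.38 in promoters and -0.27 in others between 60% and 65%, and -1.49 and -0.43 between 65% and 70%.

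Crowding of regions separated the libraries in another way. In the 22455 regions with no other shared region within 5000 bases, the median percentile was 62.9, 62.9 and 62.7 in CSF1R+ and 61.2, 61.8 and 62.8 in CSF1R- libraries. In the 2934 regions with 2 to 3 neighbours it was 15.7, 15.3 and 15.6 against 19.4, 18.6 and 15.2. The first and second CSF1R- libraries, which had the fewest peaks, ranked crowded regions higher, while the third CSF1R- library was at the level of the CSF1R+ libraries. By −log10 p-value the median difference in regions with 2 to 3 neighbours was -0.36 points, against -1.55 by fold enrichment. Lone regions outside promoters had a median difference of 1.16 points over 14770 regions, 6.86% of them higher and 3.61% lower without overlap. What the number of peaks contributes to this was not tested.

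**Figure D5:**
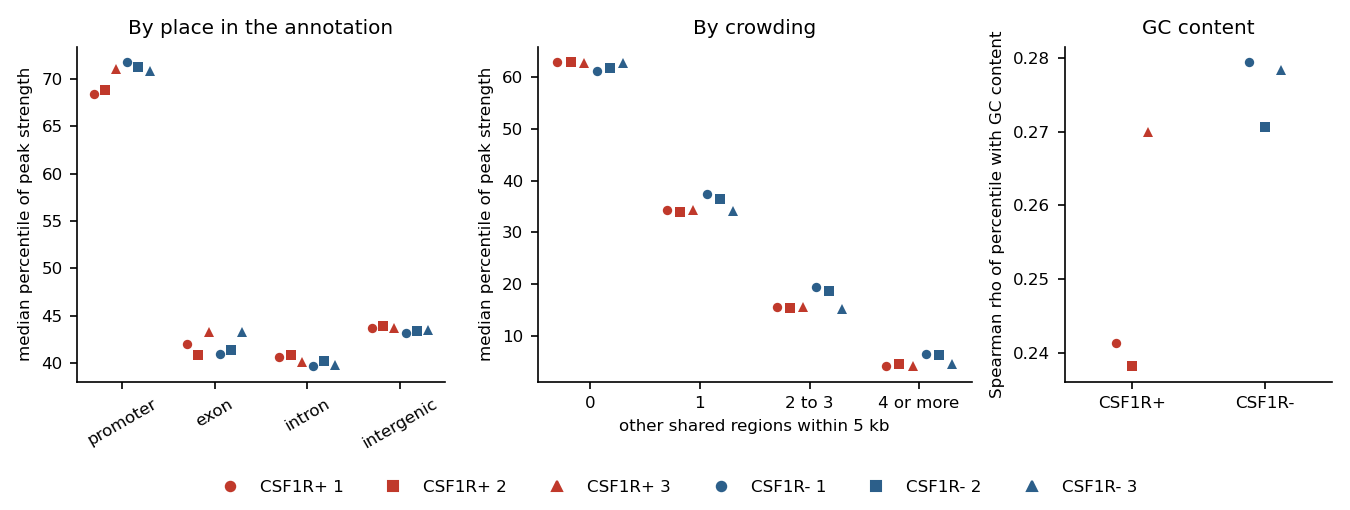
Median percentile of peak strength by place in the annotation (left) and by the number of other shared regions within 5 kb (middle), and Spearman's rho of percentile with GC content (right), each point a spleen library. Promoters are lowest in the first and second CSF1R+ libraries (68.5 and 68.8), crowded regions are highest in the first and second CSF1R- libraries, and rho is lowest in the first and second CSF1R+ libraries.

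Motif cores were searched in the 200 bases around the summit. Regions with the KLF/SP core, which 43.8% of promoters and 5.77% of other regions hold, had a median difference of -1.36 points against -0.24 without it. Regions with the NRF1 core (201 regions) had -1.85 points. Outside promoters the medians were smaller in size, -0.27 points for KLF/SP (1400 regions) and -0.78 for NRF1 (26 regions). Regions with the CTCF core (1714 regions), the site of the insulator protein CTCF, had a median difference of 0.39 points against -0.52 without it, and outside promoters 0.73 points against 0.09 over all such regions. For the cores of factors of B cells and myeloid cells, the medians were -0.10 points for PU.1 (GAGGAAGT, 3032 regions), -0.30 for EBF (306 regions), -0.29 for C/EBP (TTGCNNAA, 2570 regions) and -0.23 for RUNX (TGTGGTT, 2567 regions), against -0.48 over all regions. They were -0.56 for E2A (CAGCTG, 4826 regions), -0.31 for OCT (ATGCAAAT, 1067 regions), -0.14 for IRF (1499 regions), -0.79 for NF-kB (209 regions) and -0.86 for ETS (CCGGAAGT, 1038 regions). Outside promoters, where the median over all such regions was 0.09 points, PU.1 and C/EBP each had 0.10, EBF -0.03 and RUNX -0.11. There IRF had 0.16, E2A -0.14 and OCT -0.12. The NF-kB core had -0.66 points over 169 regions outside promoters and the ETS core -0.03 over 242. These are descriptions without a test.

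Bone marrow was compared in the 29706 autosomal regions that had a peak in all 12 libraries. The difference between CSF1R+ and CSF1R- was not shown to differ between spleen and BM in any of them (limma interaction term, 0 called, 0%, smallest adjusted p = 0.193, with 1224 and 1354 regions at an unadjusted p under 0.05 in either direction). Without the third spleen CSF1R- library 2 regions were called. Over the 29679 of these that were matched to a region of the spleen set, the SD of the differences was 6.15 points in spleen and 6.93 in BM. The median percentile of their 10514 promoters differed by -2.02 points in spleen and 0.39 in BM, and the difference between the tissues was -2.40 points (exact permutation of the CSF1R labels within tissue, 400 relabellings, p = 0.145). Of the 24 leading spleen regions, 20 were present in all 12 libraries. Of the 10 higher in spleen CSF1R+, 6 had a positive and 4 a negative difference in BM. Of the 10 lower in spleen CSF1R+, 3 had a negative difference in BM. Near Bend3 it was 15.5 ± 6.88 points (SE) in BM, and in the Gab2 intron 1.01 ± 8.48 points. In the leading region lower in spleen CSF1R+, on chromosome 2, it was 19.5 ± 7.19 points (SE) in BM, the opposite sign to spleen.

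With all 12 libraries sharing one estimate of the spread, 2 of 29706 regions (0.00673%) passed the test within spleen. Both were higher in CSF1R+ and are named here after their values were seen. Within BM the same fit called 4 regions higher and 1 lower in CSF1R+ (limma, smallest adjusted p = 0.0211), a count that also changed with the library left out. At the promoter of Samd11, which encodes a SAM domain protein (chr4:156254429-156255684), the percentiles were 31.6, 36.5 and 35.6 in spleen CSF1R+ and 13.6, 7.99 and 14.2 in spleen CSF1R- libraries. In BM they were 15.6, 12.3 and 10.1 in CSF1R+ and 9.68, 10.99 and 9.30 in CSF1R- libraries. The spleen difference was 22.6 ± 2.74 points (SE, limma adjusted p = 0.0357), and the spleen CSF1R+ libraries stood above the other 9. A region near Ptchd3 (chr11:121847719-121848351) had 90.5, 93.4 and 89.7 in spleen CSF1R+ and 71.6, 74.5 and 79.1 in spleen CSF1R- libraries, and 93.3 to 99.1 in all BM libraries. Here the spleen CSF1R- libraries were below the other 9, with a difference of 16.1 ± 1.93 points (SE, adjusted p = 0.0357). Both spleen calls depended on the setting. In the fit of the 6 spleen libraries their adjusted p was 0.778, it was 0.141 with the replicate number as a block and 0.810 (Samd11) or 1.0 (Ptchd3) when peaks were ranked by −log10 p-value, and leaving out 1 library gave from 0 to 17 calls.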

How the data were processed

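ATAC-seq was measured in 6 spleen libraries, 3 CSF1R+ and 3 CSF1R-, grouped by the labels. Per the labels and the paper, the authors trimmed reads with cutadapt, aligned them to mm10 with BWA, removed duplicates, multiply mapped reads and blacklisted regions, and called peaks with MACS2 in each library. The deposited lists give for each peak its position, its summit, its fold enrichment over local background as a ratio, and −log10 values of its p-value and q-value. Fold enrichment is relative to reads nearby, and whether this bears on the values of crowded regions was not tested. Counts of reads were not used here, and precision comes from the spread between libraries.

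Regions were merged at 1 base of overlap, ranked within each library and compared with lmFit and eBayes (trend) of limma 3.58.1 in R 4.3.3 with Benjamini-Hochberg adjustment, which was first tested on simulated data. Single values per library were compared by two-sided exact permutation tests. Genes were assigned from GENCODE vM21 (GRCm38, the build of mm10) as the gene holding the midpoint, or else the nearest start within 50000 bases. Other lists of the series were not used except those of BM. Alternatives were another ranking column, scaling, peak and region filters, variance models, GC and promoter strata, blocking on the replicate number, and leaving out each library.

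Members and gene lists were chosen with earlier results of these data known. Regions were named as the 12 largest non-overlapping differences in each direction with at most 1 per gene, all shared regions of Csf1r and Pax5, and up to 4 regions per list, of which a selection is printed. Replicate numbers were not shown to pair the libraries. Tables and figures were made with pandas 2.3.3, scipy 1.17.1, numpy 2.4.6 and matplotlib 3.10.9 under Python 3.11.15.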

Additional observations from a re-analysis of the deposited data

How the results depend on the processing

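The test called 0 regions in either direction in all 21 alternative fits of the spleen libraries, with smallest adjusted p-values from 0.295 to 0.9995, and 685 to 1717 regions higher and 646 to 1432 lower at an unadjusted p under 0.05. None of the 487 alternative values of the 24 leading regions passed the test, and their sign was fixed by the choice of regions. Regions lower in CSF1R+ without overlap numbered 1678 when ranked by −log10 p-value, against 2547 by fold enrichment. Leaving out 1 library gave 3002 to 3848 regions higher and 3884 to 5961 lower. With fewer libraries to separate, these counts cannot be below those with 6. Both were largest without the third CSF1R- library. The next largest were without the third CSF1R+ library, 3378 higher and 5394 lower. The interaction with BM called 0 to 2 regions when 1 of 12 libraries was left out, the 2 being without the third spleen CSF1R- library. The count of 2 spleen regions called in the fit of 12 libraries, added after seeing the data, was 0 when ranked by −log10 p-value, 0 with lists of equal length and 0 with the replicate block, and 0 to 17 without 1 library. There were 16 higher and 1 lower in CSF1R+ without the third spleen CSF1R- library, 0 higher and 1 lower without the third spleen CSF1R+ library, 1 higher and 1 lower without the second spleen CSF1R- library, and 0 without any other. These counts do not say whether the regions were the same. The cause was not tested.

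Same-numbered libraries of the groups deviated together with correlations of 0.0769, 0.0342 and 0.130, which do not all exceed 0.1, and each correlated best with its own number. With the replicate block the spleen fit called 0 regions higher and 0 lower, with 1396 and 903 at an unadjusted p under 0.05, and 0 with the block combined with percentiles taken within bins of GC content. Read depth per library is unknown, so no interval for counting error can be given. The median half-width of the 95% confidence interval was 15.4 points in regions with a mean percentile from 20 to 40 and 15.1 points from 40 to 60, unadjusted for the number of regions.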
